A study of Mus musculus with 11 samples.

Results

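The 4 arrays described here compared ventricular RNA of hypertrophic transgene carriers (Hyp) with that of wild-type littermates (WT), out of 11 arrays in the series. They were chosen by their labels, which pair 1 WT with 1 Hyp mouse on each. All mice were males of the TG1306/1R line on a C57/BL6 background, about 60 weeks old, and the tissue was the right and left ventricles with the septum. WT mice lacked the transgene, and Hyp mice were heterozygous carriers with a concentrically thickened heart. The third group of the series, carriers with a dilated heart (Dil), is used here only as a second route between WT and Hyp mice and for values set side by side. Mice were numbered 1 to 4 in each group, and each array compared 2 mice of the same number, called a pair here, so that 8 of the 12 mice enter, each on 1 array. Each mouse gave 25 µg of RNA to 1 labelling reaction per array.

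The line overexpresses angiotensinogen, the precursor of the pressor and growth-promoting peptide angiotensin II, from a promoter that is active in heart muscle cells. The group labels limit what it can stand for: the hearts were sorted by chamber shape, by the cardiac weight index and by the expression of hypertrophic markers, so Hyp hearts are carriers that had not dilated at that age. The weight of the heart per body weight, that index, came to 4.53 ± 0.287 mg/g in WT mice (SD, n = 4) and to 5.54 ± 0.180 mg/g in Hyp (SD, n = 4). The labels give 2 values for mouse Hyp3, 5.3 and 5.6 mg/g, and their mean was used. WT mice lay between 4.2 and 4.9 mg/g and Hyp mice between 5.3 and 5.8 mg/g, so the groups did not overlap with either value (two-sided exact permutation p = 0.0286, the smallest that 4 against 4 allows). The index took part in the choice of the hearts, so this difference is a description.

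A heart muscle cell that grows under load makes more protein, and part of it passes through the endoplasmic reticulum (ER). Chaperones of the ER fold these proteins, and when unfolded chains pile up, sensors of the unfolded protein response switch on the genes of chaperones, of disulfide isomerases and of the machinery that returns failed chains to the cytosol. The adult heart draws most of its energy from fatty acids, which carnitine carriers bring into the mitochondrion for oxidation. Hypertrophic hearts are known for the re-expression of fetal genes such as the natriuretic peptides and for a move away from fatty acids as fuel. The results below follow these roles.

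The values are log2 ratios, given as Hyp over WT, so that 1 stands for a doubling. The estimate of a gene is the mean over 2 dye orientations, Hyp in the dye Cy5 (pairs 1 and 4) and Hyp in Cy3 (pairs 2 and 3). It is given ± its standard error, which comes from a fit with a dye term and leaves out the gap between the orientations. In limma, 0 of 12097 features, 8106 of them named genes, reached an adjusted p under 0.05 (0% called). The smallest adjusted p was 0.234. At an unadjusted p under 0.05 there were 502 features with higher values in Hyp (4.15%) and 506 with lower values (4.18%), 1008 in all (8.33%), where chance alone gives 605. Without pair 1 that count was 1854, without pair 2 it was 309 and without pair 3 it was 633. The fits without pair 2 or pair 3 tested only 9863 features, so their counts cannot be set directly beside 1008 or 605. No gene below is therefore called higher or lower in Hyp mice in general, and the values describe these 8 mice. Of 6832 named genes with a value in all 4 pairs, 466 were higher in Hyp in every pair (6.82%) and 600 were lower in every pair (8.78%); over named and unnamed features the shares were 7.24% and 8.21%. Of all 8106 named genes, 49.7% had estimates above 0 and 50.3% below 0.

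Arrays of the same dye orientation resembled each other. Across genes, which are not independent replicates, the ratios of pairs 1 and 4 correlated at 0.367 and those of pairs 2 and 3 at 0.482, while pairs of opposite dye orientation gave -0.0937 to -0.272. The array of pair 1 had displaced rows, which were moved back, and 21.7% of its spots then had no value. Across genes with more than 1 spot, the first and second spot correlated at 0.091, 0.434, 0.221 and 0.159 in pairs 1 to 4. Spots of 1 gene thus agreed weakly, and the number of spots given for some genes below is no check on their values. Where a gene lacks pair 1, pair 4 alone stands for its dye orientation and counts for as much as pairs 2 and 3 together. Whether the deposited ratio is Cy5 over Cy3 is not given in the sources used here; that direction is likely, because Agt and Nppb then come out higher in carriers. Were it Cy3 over Cy5, all signs below would turn.

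Of the hypertrophic markers, 5 of 16 were measured. Nppb, which codes for the B-type natriuretic peptide that the ventricle secretes under wall stress, stood at 1.26, 1.28, 1.21 and 0.30 in pairs 1 to 4. It was higher in Hyp in every pair, with an estimate of 1.01 ± 0.17 (2.02-fold), and pair 4 lay well below the other 3. Over the Dil mice its ratio was 0.88 in set 1, 1.47 in set 3 and -0.27 in set 4, where the sign turned. Rcan1, a calcineurin inhibitor whose transcript is itself induced by calcineurin, stood at 0.48, 0.77, 0.36 and 0.56. Its estimate was 0.54 ± 0.08 (1.46-fold), and all 4 pairs lay close together. Both genes belong to the kind of marker by which the hearts were chosen, so their direction is not independent evidence. Timp1, an inhibitor of matrix proteases, was at 0.16 ± 0.08 and Tgfb2, a growth factor of the TGF-beta family, at -0.01 ± 0.08. Fhl1, a LIM-domain protein of muscle, was at 0.02 ± 0.05, with values on both sides of 0.

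Agt, the gene of angiotensinogen, is the transcript that the transgene raises, and 6 of the 17 genes listed for the renin-angiotensin system were measured. Agt had no value in pair 1 and stood at 1.83, -0.24 and 3.60 in pairs 2 to 4, with an estimate of 2.20 ± 0.48 (4.59-fold). Pair 3 thus showed no excess on its direct array, although the route over the Dil mouse of that set gave 1.70, and those of sets 1 and 4 gave 3.47 and 3.10. The Agt estimate rests on 1 spot with values, and whether it reads the transgene, the mouse gene or both was not tested. Agtr2, an angiotensin II receptor, was at 0.06 ± 0.05, Agtrap, which binds the other receptor type, at -0.05 ± 0.05, and the peptidase gene Anpep at -0.13 ± 0.12. The direct ratios of these members were small beside that of Agt.

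**Figure D1:**
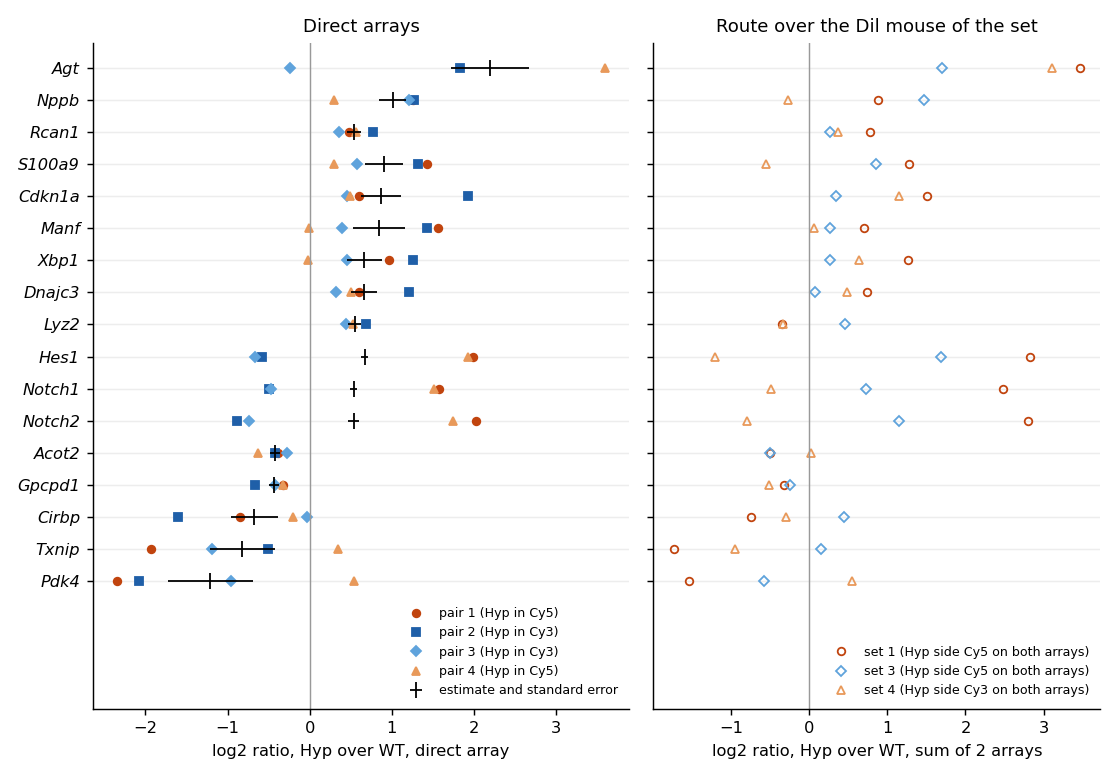
Log2 ratios of Hyp over WT for 17 genes. The left panel shows the direct array of each pair with the estimate and its standard error, and the right panel the sum of the 2 arrays that lead over the Dil mouse of the set, which adds the dye effect 2 times. Nppb, Rcan1, S100a9, Cdkn1a and Dnajc3 lie right of 0 in every pair on the left, while the Notch genes and Hes1 change side with the dye.

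Genes of ER chaperones and the unfolded protein response had the highest median of the 28 pathway lists. The lists were chosen with earlier results of these data known, so ranks among them and counts of their members are descriptions. Of 31 measured members, 28 had estimates above 0, and the list median was 0.23 against 0.00 over all features tested. In single pairs the list median was 0.26, 0.49, 0.14 and 0.04, above 0 in each but close to it in pair 4. Of 29 members with all 4 values, 13 were higher in Hyp in every pair, beside 6.82% of all named genes, and 1, the sensor gene Atf6, was lower in every pair (-0.06 ± 0.04). At an unadjusted p under 0.05 there were 14 members with higher values and 0 with lower values, beside 4.15% and 4.18% of all features.

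Among the chaperones, Hspa5 (BiP), the main heat shock protein of the ER and the keeper of the sensors, stood at 0.70, 0.56, 0.11 and 0.19 (0.39 ± 0.12). Hsp90b1, its HSP90 partner, stood at 0.41, 1.25, 0.38 and 0.18 (0.55 ± 0.16). Dnajc3, a co-chaperone that also restrains the kinase PERK, stood at 0.60, 1.22, 0.33 and 0.51 (0.66 ± 0.15, 1.58-fold). These 3 genes were higher in Hyp in all 4 pairs, each over a wide range. The lectin chaperones that hold glycoproteins were less even: Calr stood at 1.37, 1.05, 0.22 and -0.21 (0.61 ± 0.30). Canx stood at 0.60, 0.71, -0.04 and 0.46 (0.43 ± 0.13). Both were lower in Hyp in 1 of the 4 pairs, Calr in pair 4 and Canx in pair 3.

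The disulfide isomerases split. Pdia4 stood at 0.63, 1.15, 0.15 and 0.36 (0.57 ± 0.18) and was higher in every pair, and Pdia6 was at 0.44 ± 0.12 with pair 3 at -0.03. Pdia3 was at 0.10 ± 0.05, Erp29 at 0.02 ± 0.04 and P4hb, the best known member of the family, at -0.02 ± 0.04. Manf, a secreted protein of ER stress, stood at 1.56, 1.43, 0.40 and -0.01 (0.85 ± 0.31), high in pairs 1 and 2 and at 0 in pair 4. Xbp1, a transcription factor of the response, stood at 0.96, 1.27, 0.45 and -0.02 (0.67 ± 0.22) and was likewise at about 0 in pair 4. Of the other regulators, Atf3 was at 0.45 ± 0.13, Ppp1r15a, a phosphatase subunit that lets translation restart, at 0.23 ± 0.04, Atf4 at 0.07 ± 0.07, and the sensor gene Ern1 at -0.00 ± 0.05. Genes that retrieve failed chains lay above 0: Syvn1 (0.30 ± 0.10), Sel1l (0.18 ± 0.06), Derl2 (0.26 ± 0.09), Edem1 (0.22 ± 0.09) and Selenos (0.19 ± 0.05) were higher in Hyp in all 4 pairs.

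**Figure D2:**
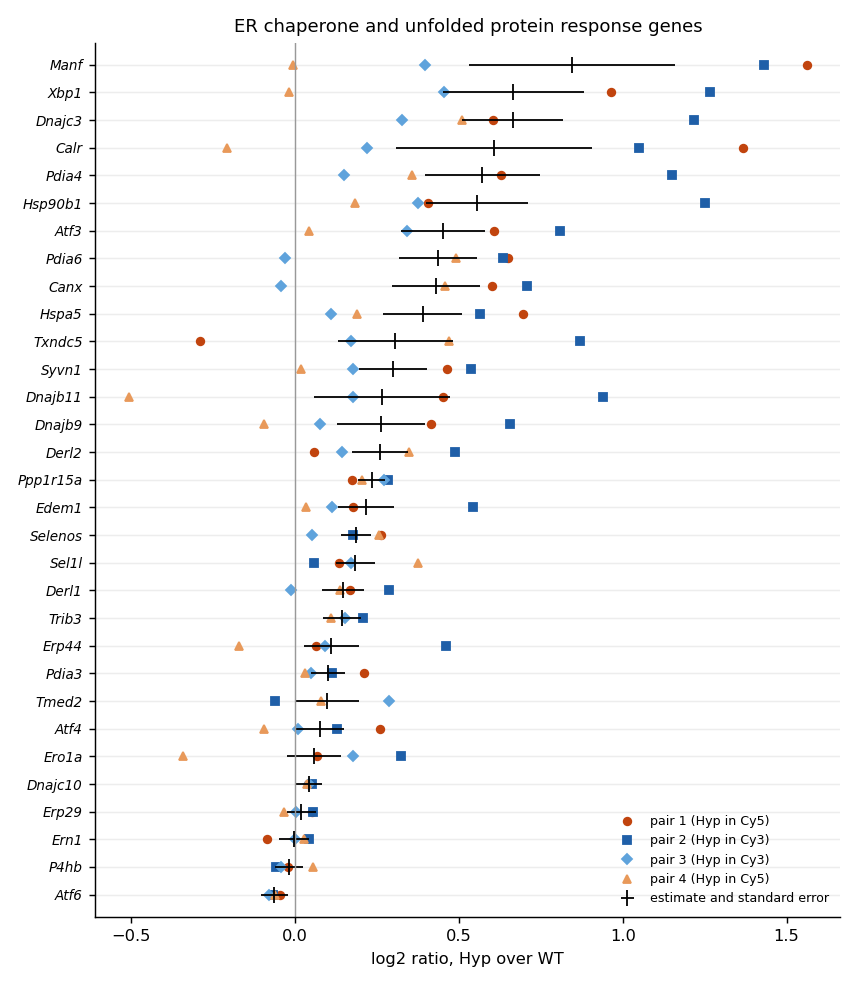
Log2 ratios of Hyp over WT (x axis) for the 31 measured genes of ER chaperones and the unfolded protein response (rows), with 1 point per mouse pair and the estimate with its standard error. Of the 31 estimates, 28 lie right of 0; the median of the list is 0.49 in pair 2 and 0.04 in pair 4.

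Many chaperone genes carry the ER stress element in their promoters, which the transcription factors ATF6 and NF-Y bind. It was searched as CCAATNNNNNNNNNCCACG on both strands in RefSeq promoter windows of 300 bases (250 before to 50 after a gene's start, build GRCm38.p6). Of 31 measured members, 26 had a window, and 7 of these held the element (26.9%). Among genes on the array with a window, 13 of 6620 held it (0.196%). The shares were 37 of 27025 genes in all (0.137%) and 0.119% of 32851 windows. Among the members that were higher in every pair, 4 of 13 held it, and among the others 3 of 13, a difference that was not tested. Of 34 genes of ER translocation and glycosylation with a window, 0 held it, and of 35 fatty acid oxidation genes 1 did. A match is a description of letters and not of binding. The 220 bases before the start of 4 of the 7 members with the element, 3 chaperones and a co-chaperone, are shown, 5′ to 3′ along the gene, with the element in capitals; in Calr it reads on the opposite strand, and Hsp90b1 holds 2 elements.
Hspa5, chr2:34771870-34772089, + strand: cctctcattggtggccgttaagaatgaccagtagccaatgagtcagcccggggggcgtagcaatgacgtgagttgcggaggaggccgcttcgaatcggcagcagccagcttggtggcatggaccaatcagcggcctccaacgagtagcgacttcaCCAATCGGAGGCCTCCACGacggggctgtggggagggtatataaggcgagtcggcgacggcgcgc
Hsp90b1, chr10:86705445-86705664, - strand: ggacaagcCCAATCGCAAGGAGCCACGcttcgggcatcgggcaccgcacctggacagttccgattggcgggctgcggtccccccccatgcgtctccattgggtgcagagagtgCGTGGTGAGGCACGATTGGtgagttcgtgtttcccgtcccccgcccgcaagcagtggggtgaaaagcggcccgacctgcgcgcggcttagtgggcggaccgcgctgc
Dnajc3, chr14:118937712-118937931, + strand: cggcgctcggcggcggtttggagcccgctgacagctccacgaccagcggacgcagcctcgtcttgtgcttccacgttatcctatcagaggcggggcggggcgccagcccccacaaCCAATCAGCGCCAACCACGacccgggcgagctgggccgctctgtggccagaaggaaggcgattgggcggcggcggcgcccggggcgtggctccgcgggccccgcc
Calr, chr8:84846932-84847151, - strand: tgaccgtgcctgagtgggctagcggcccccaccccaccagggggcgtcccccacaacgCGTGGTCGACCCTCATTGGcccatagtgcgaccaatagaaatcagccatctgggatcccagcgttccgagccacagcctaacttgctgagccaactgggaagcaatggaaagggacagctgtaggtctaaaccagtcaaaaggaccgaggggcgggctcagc
The other 3 members with a match read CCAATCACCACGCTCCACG in Canx, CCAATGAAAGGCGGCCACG in Pdia6 and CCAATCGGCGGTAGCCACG in Syvn1. The first element starts 65 bases before the gene in Hspa5, 105 in Dnajc3, 162 in Calr and 212 in Hsp90b1.

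Genes of ER translocation and glycosylation, which thread new chains into the ER and attach sugars, had a median of 0.12, with 34 of 44 members above 0. Of 36 members with 4 values, 12 were higher in every pair and 0 were lower, beside 6.82% and 8.78% of all named genes. The pair medians were 0.10, 0.34, 0.05 and 0.09. The list median was 0.04 without pair 2 and 0.20 without pair 3. Ostc, a subunit of the oligosaccharyltransferase, stood at 0.77, 0.83, 0.24 and 0.37 (0.55 ± 0.13). Mpdu1, needed for the use of mannose donors, was at 0.32 ± 0.08, the signal peptidase gene Sec11c at 0.44 ± 0.12 and Ssr2, of the translocon-associated complex, at 0.36 ± 0.10, each higher in all 4 pairs. The 53 Golgi and vesicle transport genes had a median of 0.07 (0.04 without pair 2) with 39 above 0. Of 44 with 4 values, 8 were higher in every pair and 3 were lower in every pair, beside the same shares. Uso1, a tether of ER vesicles, stood at 0.50, 0.33, 0.16 and 0.37 (0.34 ± 0.05), and Arfgap3 was at 0.21 ± 0.04. Gorasp2 was at 0.19 ± 0.06 and Tmed3 at -0.16 ± 0.04, lower in every pair.

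For chaperones of the cytosol the median of 29 members was 0.04, with 17 above 0, and pair medians of 0.02, 0.32, 0.04 and -0.10. Hsp90aa1 stood at 0.40, 1.16, 0.35 and 0.20 (0.53 ± 0.14), and the co-chaperone Bag3 at 0.31, 0.43, 0.14 and 0.25 (0.28 ± 0.06). Both were higher in all 4 pairs, while Dnaja2 was at -0.14 ± 0.05 and Bag1 at -0.24 ± 0.09. The difference between the lists was not tested. Nfe2l2, the regulator of antioxidant genes, was at 0.44 ± 0.09 (0.65, 0.55, 0.07 and 0.48), and the 31 antioxidant and glutathione genes had a median of -0.02.

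Genes of fatty acid oxidation had the lowest median of the 28 pathway lists, -0.16, with 40 of 45 members below 0. The pair medians were -0.20, -0.18, -0.17 and -0.03, so that pair 4 again lay nearest to 0. Of 36 members with 4 values, 10 were lower in Hyp in every pair, beside 8.78% of all named genes, and 0 were higher in every pair. At an unadjusted p under 0.05 there were 16 members with lower values, beside 4.18% of all features. There was 1 with a higher value, the receptor gene Ppara (0.33 ± 0.11), beside 4.15%.

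Along the carnitine route, Cpt1a, the liver-type enzyme of the first step, stood at -0.66, -0.86, -0.45 and 0.01 (-0.49 ± 0.14). Its muscle-type relative Cpt1b was at -0.29 ± 0.09, the carnitine carrier Slc25a20 at -0.40 ± 0.06, and Cpt2, of the inner membrane, stood at -0.52, -0.43, -0.31 and -0.18 (-0.36 ± 0.07). Only Cpt2 of these 4 was lower in Hyp in every pair, while Slc25a20 was at 0.04 in pair 2. Enzymes of the oxidation spiral were lower in all 4 pairs in Decr1 (-0.35 ± 0.08), Hadh (-0.33 ± 0.08), Acadm (-0.33 ± 0.11) and Ehhadh, of the peroxisome (-0.45 ± 0.11). Acot2, a mitochondrial thioesterase, stood at -0.38, -0.42, -0.27 and -0.63 (-0.43 ± 0.06) with little spread. Etfdh, which passes the electrons on to the respiratory chain, was at -0.29 ± 0.06 and Mlycd, which breaks down the inhibitor malonyl-CoA, at -0.41 ± 0.10.

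Genes that fasting and fatty acids are known to induce varied widely between pairs. Pdk4, a kinase that closes pyruvate dehydrogenase, stood at -2.34, -2.08, -0.96 and 0.54 (-1.21 ± 0.52, 2.31-fold lower). Ucp3, a mitochondrial carrier, stood at -0.80, -1.82, -0.78 and 0.80 (-0.65 ± 0.32), and Angptl4, an inhibitor of lipoprotein lipase outside the list, at -1.26, -0.75, -0.82 and 0.20 (-0.66 ± 0.25). All 3 genes were low in Hyp in pairs 1 to 3 and higher in pair 4, and none of them passed. Fabp3, the fatty acid binding protein of the heart, was at -0.01 ± 0.04, and Ppargc1a, a coactivator of mitochondrial genes, at -0.04 ± 0.04.

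**Figure D3:**
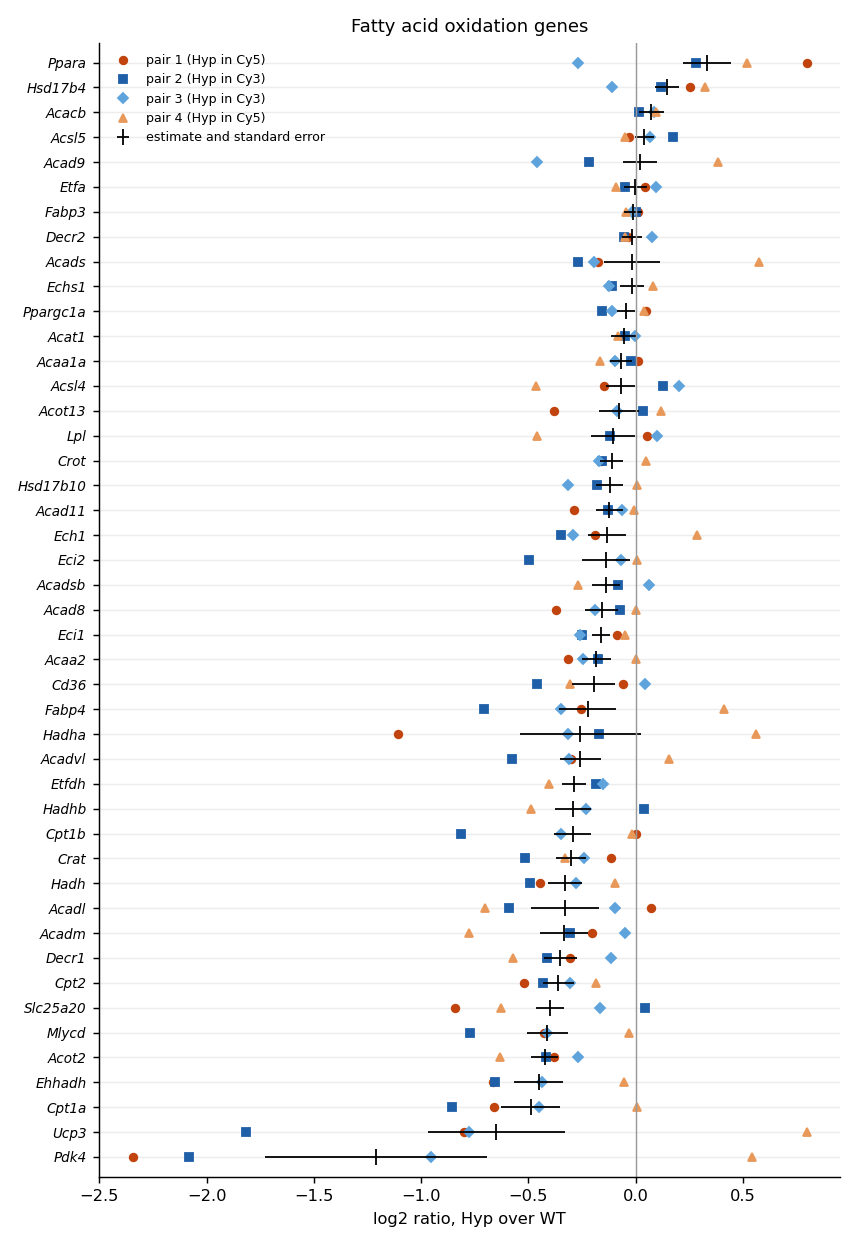
Log2 ratios of Hyp over WT (x axis) for the 45 measured genes of fatty acid oxidation (rows), with 1 point per mouse pair and the estimate with its standard error. Of the estimates, 40 lie left of 0; Pdk4 and Ucp3 reach furthest left in pairs 1 and 2 and lie right of 0 in pair 4.

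The peroxisome list had a median of -0.10 with 13 of 15 members below 0. That median was -0.055 without pair 1, -0.062 without pair 3 and -0.0375 with the first array as deposited. Abcd3, an acyl-CoA transporter of its membrane, stood at -0.44, -0.47, -0.22 and -0.39 (-0.38 ± 0.06), and Pxmp2, a membrane channel, was at -0.23 ± 0.05. Both, with Gnpat (-0.18 ± 0.05) and Pex11a (-0.22 ± 0.07), were lower in every pair. In the TCA cycle and pyruvate dehydrogenase list 26 of 30 members lay below 0 and the median was -0.12. Of 29 members with 4 values, 8 were lower in every pair, beside 8.78% of all named genes. Among them were Idh3g (-0.26 ± 0.06) and Mdh2 (-0.24 ± 0.06). Pdp2, a phosphatase that opens pyruvate dehydrogenase, had no value in pair 1 and stood at -0.51, -0.60 and -0.13 (-0.34 ± 0.06).

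For oxidative phosphorylation the dye mattered more. Its median was -0.09 with 38 of 51 members below 0, but the median of the members' means was 0.05 with Hyp in Cy5 and -0.21 with Hyp in Cy3. The list median was -0.14 without pair 3. Cox6b2 stood at -0.15, -0.57, -0.25 and -0.42 (-0.34 ± 0.08), lower in every pair, whereas Ndufa12, of complex I, stood at 0.00, -0.36, -0.35 and 0.03 (-0.17 ± 0.04). Mitochondrial ribosomal proteins had a median of -0.02, with Mrpl16 (-0.20 ± 0.04) and Mrps35 (-0.19 ± 0.04) lower in every pair. Glycolysis and glycogen genes were at -0.05, with 20 of 34 below 0. Fbp2, the muscle fructose bisphosphatase, was at -0.46 ± 0.10, the lactate dehydrogenase subunit Ldhb at -0.28 ± 0.05, both lower in all 4 pairs, and the phosphorylase kinase subunit Phkg1 was at -0.34 ± 0.07.

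**Figure D4:**
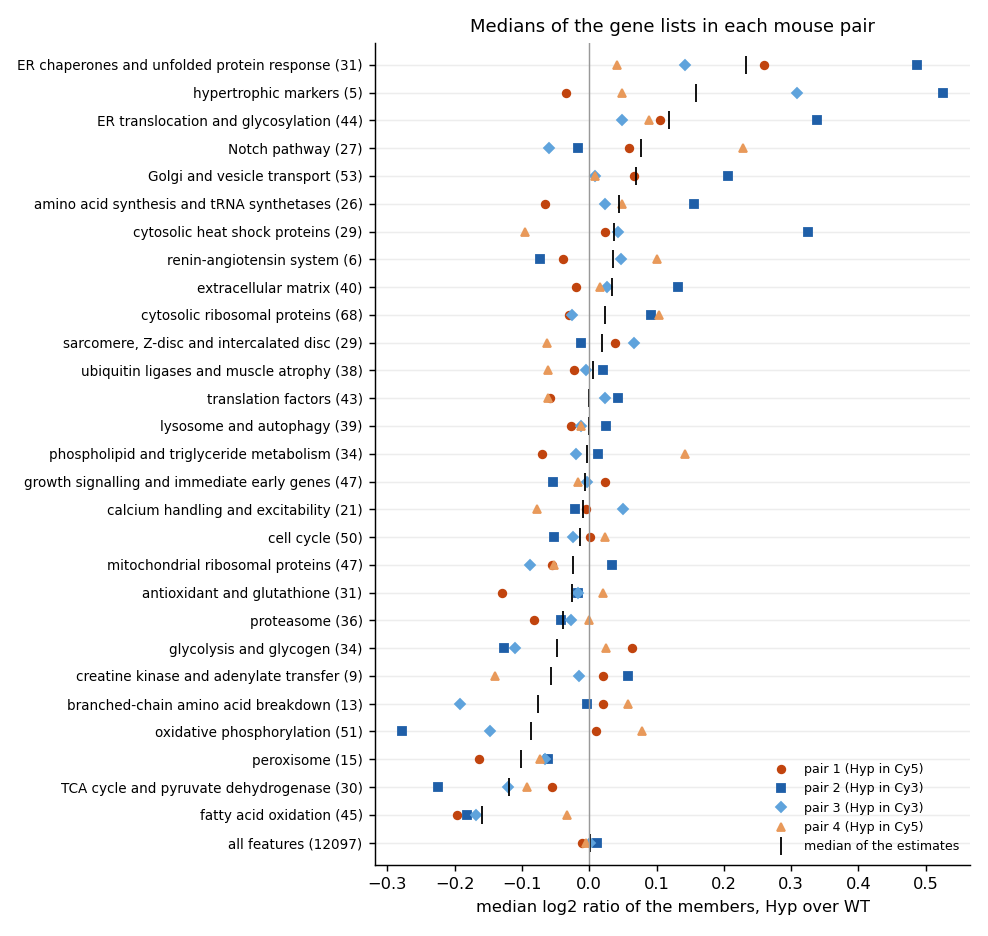
Median log2 ratio of Hyp over WT (x axis) of the members of each pathway list with at least 5 measured genes (rows, number of genes in brackets), for each mouse pair and for the estimates, with all 12097 features as the last row. The ER chaperone list lies at the top, at 0.23, and fatty acid oxidation at the bottom, at -0.16; all features lie at 0.

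The second route between the same mice, over the Dil mouse, was measured on separate arrays for sets 1, 3 and 4, and carries the dye effect 2 times. Along it the ER chaperone median was 0.28, 0.07 and 0.18, and that of fatty acid oxidation -0.13, -0.08 and -0.04, on the same side of 0 as the direct arrays in each set. The TCA cycle median was 0.00, 0.12 and -0.00 along this route, so its lower values on the direct arrays did not recur. For oxidative phosphorylation it was 0.09, 0.27 and -0.54, above 0 in both sets with Hyp in Cy5 and below 0 in the set with Hyp in Cy3. Over all named genes the direct ratio and the route correlated at 0.807 in set 1, where both have Hyp in Cy5. The rows of the direct array of set 1 were moved back to match this route, so that value is no independent check. In sets 3 and 4, where the orientations are opposite, the correlations were -0.348 and 0.199.

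In lipid metabolism the list median was close to 0 (-0.00 over 34 genes), and single genes stood apart. Gpcpd1, which breaks down glycerophosphocholine, stood at -0.32, -0.66, -0.42 and -0.32 (-0.43 ± 0.06, over 4 spots), and the choline kinase Chkb at -0.16, -0.58, -0.36 and -0.25 (-0.34 ± 0.06). Dgat2, of triglyceride synthesis, stood at -0.55, -1.18, -0.62 and -0.15 (-0.63 ± 0.12). The carboxylesterase Ces1d stood at -1.10, -0.83, -0.44 and -0.31 (-0.67 ± 0.15). All 4 genes were lower in Hyp in every pair on the direct arrays. Over the Dil mice of sets 1, 3 and 4, Dgat2 was at 0.11, -0.12 and 0.31 and Chkb at 0.01, 0.06 and -0.24. Gpcpd1 was at -0.32, -0.25 and -0.52 along that route and Ces1d at -1.24, -0.55 and 0.03.

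The genes with the smallest p among those of 1 sign in all 4 pairs also include the following. On the higher side Resf1 stood at 0.69, 0.31, 0.21 and 0.84 (0.51 ± 0.05), the cyclin gene Ccnd2 at 0.28 ± 0.05 over 7 spots, and Cish, an inhibitor of cytokine signalling, at 0.43 ± 0.08. Heg1, a receptor of endothelial junctions and heart growth, was at 0.24 ± 0.04, Trim44 at 0.33 ± 0.06, Csnk2a1, a casein kinase subunit, at 0.24 ± 0.04 and the actin regulator Vasp at 0.22 ± 0.04. Emp1 (0.21 ± 0.04), Ppp1r18 (0.30 ± 0.06), Grpr (0.28 ± 0.05) and the zinc transporter Slc39a10 (0.24 ± 0.05) complete that side with Uso1, Ppp1r15a, Rcan1 and Nppb. On the lower side the galectin gene Lgals4 stood at -0.65, -0.54, -0.66 and -0.25 (-0.53 ± 0.08) and Vwa8, a mitochondrial ATPase, at -0.62, -0.42, -0.19 and -0.44 (-0.42 ± 0.06). Xdh, the xanthine oxidoreductase, was at -0.31 ± 0.05, the deubiquitinase Usp2 at -0.34 ± 0.05, Fnip1, a partner of folliculin, at -0.35 ± 0.06 and the proteasome activator Psme1 at -0.36 ± 0.06. Prxl2a (-0.26 ± 0.04), Crip2 (-0.29 ± 0.05), Nop53 (-0.29 ± 0.05) and the stress gene Gadd45b (-0.23 ± 0.04) complete it with Gpcpd1, Acot2, Abcd3, Chkb and Ldhb. Some of these estimates rest mostly on 1 orientation. With Hyp in Cy5 and in Cy3, Fnip1 was at -0.64 and -0.06, Psme1 at -0.62 and -0.10, Crip2 at -0.49 and -0.09 and Prxl2a at -0.45 and -0.06. Others were more even on the direct arrays, such as Abcd3 (-0.41 and -0.35) and Ldhb (-0.30 and -0.26). Over the Dil mice of sets 1, 3 and 4, however, Abcd3 was at -0.72, -0.27 and 0.07 and Ldhb at 0.12, 0.49 and -0.69. Along that route Rcan1, Ccnd2, Ppp1r15a, Trim44, Cish, Grpr, Gpcpd1, Vwa8, Prxl2a, Fnip1 and Psme1 kept their side of 0 in each set. The other genes named here changed side in at least 1 set, such as Resf1 at -0.78 and Heg1 at -1.04 in set 3.

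By size, the highest estimates among genes with 4 values were Nppb, S100a9, Cdkn1a, Manf and Errfi1. S100a9, a calcium-binding protein of neutrophils, stood at 1.44, 1.33, 0.58 and 0.29 (0.91 ± 0.23), and at 1.28, 0.85 and -0.55 over the Dil mice of sets 1, 3 and 4. Cdkn1a, the cell cycle inhibitor p21, stood at 0.61, 1.93, 0.45 and 0.50 (0.87 ± 0.25), with pair 2 far above the rest. Errfi1, an inhibitor of EGF receptor signalling, stood at 1.49, 1.03, 0.25 and 0.06 (0.71 ± 0.27). The lowest were Pdk4, Txnip, Cirbp, Ces1d and Angptl4. Txnip, a thioredoxin-binding protein induced by glucose, stood at -1.94, -0.50, -1.19 and 0.35 (-0.82 ± 0.40), and Cirbp, a cold-inducible RNA-binding protein, at -0.84, -1.61, -0.03 and -0.20 (-0.67 ± 0.28). Among genes without pair 1, Snx6 (0.38, 0.06 and 1.31 in pairs 2 to 4), Abcf3 (0.24, 0.04 and 1.11), Arl16 (0.12, 0.04 and 1.09), Cenpb (0.15, 0.00 and 1.07) and Ccser2 (0.16, 0.27 and 0.90) were highest in pair 4 throughout. On the lower side, besides Pdp2 and Etfdh, were Ndufb10 (-0.31 ± 0.06), Alox12 (-0.30 ± 0.06) and the formin Fhod3 (-0.35 ± 0.07). In pairs 2 to 4 Ndufb10 stood at -0.08, -0.06 and -0.55 and Fhod3 at -0.09, -0.27 and -0.51. Etfdh stood at -0.19, -0.15 and -0.40, so all of these were lowest in pair 4. Alox12 was even, at -0.30, -0.33 and -0.28.

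The Notch pathway, in which ligands of one cell cleave receptors of the next to drive genes such as Hes1, held values that followed the dye. Hes1 stood at 1.99 and 1.93 in pairs 1 and 4, with Hyp in Cy5, and at -0.58 and -0.66 in pairs 2 and 3, with Hyp in Cy3. Its estimate of 0.67 ± 0.04 is the mean of 2 opposite values. The receptor Notch1 stood at 1.58, -0.49, -0.47 and 1.52 (0.54 ± 0.04), Notch2 at 2.02, -0.88, -0.74 and 1.75 (0.54 ± 0.07), and Numbl, an inhibitor of the receptor, at 1.64, -0.72, -0.64 and 1.58 (0.47 ± 0.04). As Cy5 over Cy3, before any turning, Hes1 was above 0 on all 11 arrays of the series (0.42 to 1.99), whichever mice they compared, as were Notch2, Numbl, Dll1 and Jag1. Of the 27 measured Notch genes 17 had estimates above 0, beside 49.7% of all named genes. At an unadjusted p under 0.05, 8 of the 27 had a higher value, beside 4.15% of all features. Only 1 of 25 with 4 values, the glycosyltransferase Lfng, was higher in every pair (0.14, 0.15, 0.19 and 0.23), beside 6.82% of all named genes.

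The same held beyond Notch. Of the 20 named genes with 4 values and the smallest p, 19 had means of opposite sign in the 2 dye orientations, and 18 had Cy5 above Cy3 on all 11 arrays, as did 103 of 6832 named genes (1.51%). They include Wnt11, Wnt7a, Fgf4, Fgf8, Sctr and Nkx6-1, developmental and pancreatic genes. Resf1 is the one of the 20 with a single sign in both orientations. The small standard errors of these genes thus describe how closely arrays of 1 orientation agreed, and the part of the dye in their estimates was not tested. Over all named genes with 4 values, 49.4% had opposite signs in the orientations, and of the 608 with an unadjusted p under 0.05 it was 21.9%.

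**Figure D5:**
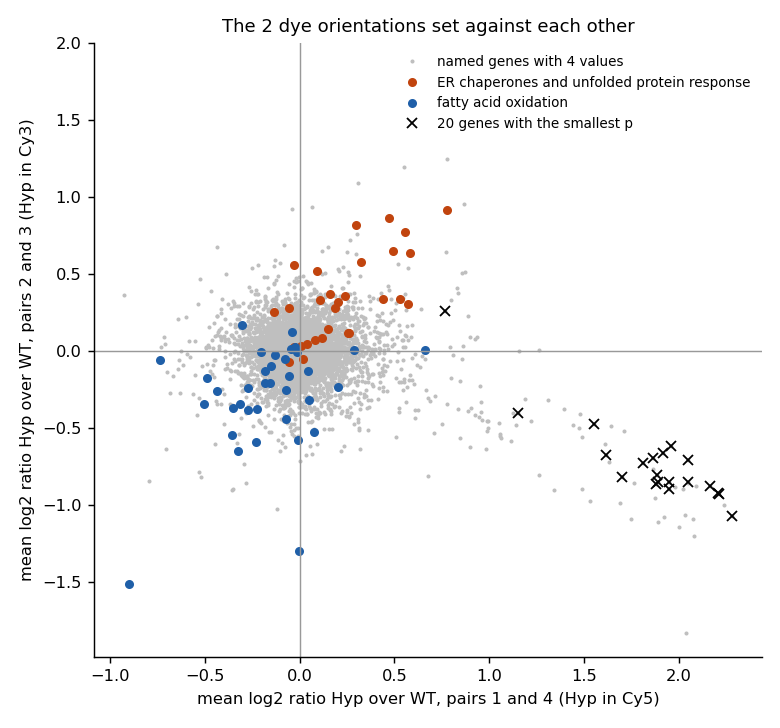
Mean log2 ratio of Hyp over WT with Hyp in Cy5 (x axis, pairs 1 and 4) against that with Hyp in Cy3 (y axis, pairs 2 and 3), 1 point per named gene with 4 values. The 20 genes with the smallest p (crosses) lie at lower right except Resf1, with opposite signs; the ER chaperone genes lie mostly at upper right and the fatty acid oxidation genes mostly at lower left.

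The remaining lists had medians within 0.08 of 0. In calcium handling and excitability (21 genes, median -0.01), Hrc, which buffers calcium in the sarcoplasmic store, stood at -0.33, -0.52, -0.13 and -0.55 (-0.38 ± 0.08), and the potassium channel gene Kcnd2 was at -0.17 ± 0.05. Camk2g was at -0.14 ± 0.05, Atp2b1 at -0.10 ± 0.05 and the calcium pump gene Atp2a2 at -0.02 ± 0.06. In the sarcomere and disc list (29 genes, 0.02), the tropomyosin Tpm2 was at -0.24 ± 0.05 and Actn4 at 0.12 ± 0.05. In the extracellular matrix list (40 genes, 0.03), the laminins Lamb3 (-0.51 ± 0.12) and Lamb2 (-0.29 ± 0.09) and the collagen Col4a2 (-0.14 ± 0.05) lay below 0 and decorin, Dcn, above it (0.22 ± 0.06).

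In growth signalling (47 genes, -0.01), the growth factor Igf1 was at 0.28 ± 0.05, Prkcd at 0.24 ± 0.06, the calcineurin subunit Ppp3r1 at -0.21 ± 0.05 and Igfbp3 at -0.23 ± 0.06, the last 2 lower in every pair. In the cell cycle list (50 genes, -0.01), Gadd45a stood at -0.42, -1.42, -0.39 and -0.30 (-0.63 ± 0.18). The 36 proteasome genes had a median of -0.04, with Psmb7 at -0.16 ± 0.05, Psmb11 at -0.26 ± 0.08 and Psme4 at -0.23 ± 0.08. Of 39 lysosome and autophagy genes (median -0.00), Npc1, a cholesterol exporter, was at -0.25 ± 0.06 and the proton pump subunit Atp6v1a at 0.13 ± 0.05. Amino acid synthesis and tRNA synthetases (26 genes) were at 0.04, with Mthfd2 at 0.27 ± 0.08 and Rars at 0.21 ± 0.06. Translation factors (43 genes) were at 0.00, with Eif3a at 0.17 ± 0.04 over 9 spots and Eif1ax at -0.19 ± 0.04. The 68 cytosolic ribosomal proteins were at 0.02, 38 ubiquitin genes at 0.01, 9 genes of adenylate transfer at -0.06 and 13 of branched-chain amino acid breakdown at -0.08.

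Ratios carry no level, so the tissue itself cannot be checked by its markers: only Ryr2 of 10 ventricular markers was measured (-0.08 ± 0.05), and Nppa, Acta1, Myh6, Myh7 and Pln were not measured here. In bulk ventricle, fewer cells of a type and less RNA per cell cannot be told apart. Markers of other cell types had medians of -0.05 (9 endothelial genes), -0.01 (10 fibroblast genes), 0.01 (6 smooth muscle genes), 0.01 (6 adipocyte genes) and 0.12 (6 macrophage and leukocyte genes). Their pair medians ran from -0.06 to -0.02 for endothelial, -0.13 to 0.14 for fibroblast, -0.06 to 0.07 for smooth muscle, -0.03 to 0.22 for leukocyte and -0.11 to 0.39 for adipocyte genes. Pair 2, in which the ER chaperone median was 0.49, held the highest of these values for fibroblast, leukocyte and adipocyte genes. The single atrial marker measured, Dkk3, stood at -0.50, 1.21, 0.13 and -0.37, again highest in pair 2. Of 2 genes each, the erythrocyte median was -0.18 (-0.46 in pair 2), the skeletal muscle median -0.13 and the lymphocyte and mast cell median 0.27 (0.65 in pair 4), and 3 Schwann cell and neuron genes were at 0.05. Lyz2, the macrophage lysozyme, had no value in pair 1 and stood at 0.68, 0.44 and 0.53 (0.55 ± 0.08). Over the Dil mice it was at -0.34, 0.46 and -0.33. The estimates of the other 5 leukocyte genes lay between -0.08 and 0.12. The parts of these cell types in the results above were not tested.

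Set beside the other carriers, the ER chaperone list had a median of 0.23 in Hyp over WT and 0.13 in Dil over WT, which share the WT mice, and -0.08 in Dil over Hyp. Of all features limma called 0.0579% in Dil over WT. For fatty acid oxidation these medians were -0.16, -0.27 and -0.14. Hspa5 was at 0.39 ± 0.12 in Hyp over WT and at -0.02 in Dil over WT, and Nppb at 1.01 ± 0.17 and 2.68. Agt was at 2.20 ± 0.48 and 2.45, and at -0.07 in Dil over Hyp. The direct test of Dil against Hyp called 0 of 12097 features (0%) in limma, with 509 at an unadjusted p under 0.05 (4.21%), so no difference between the carrier groups was shown for these genes.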

How the data were processed

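RNA of 8 mice was compared on 4 cDNA arrays with 2 dyes, 1 mouse per dye. The authors deposited 1 log ratio per spot and array, read here as log2 of Cy5 over Cy3; for the base, direction, scanner and normalization, the sources used here give nothing, and with natural logs the printed folds would be too small. Spot brightness is unknown, so the number of arrays limits the precision. All value columns were mapped to their mice by name. Ratios were turned to Hyp over WT by the labels' dyes, 736 control spots were left out, and spots of 1 gene were averaged. Spots were named through GEO's platform annotation: of 17664 spots, 12563 had 1 symbol, 412 several and 3953 none listed here.

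In the array of WT1 and Hyp1, 40 of 46 position groups were displaced by 8 of 32 blocks and were moved back. Over all spots its correlation with the route over Dil1 went from 0.459 to 0.781, and 3840 spots were left without a value.

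The fit was limma 3.58.1 in R 4.3.3 with a dye term, for features with at least 3 of 4 values, with Benjamini-Hochberg adjustment over 12097 features and a threshold of 0.05. The code was tested on simulated data. Each array itself pairs mice of the same number, and the labels do not say that these share a litter or a day. Mice are separate animals. The cardiac weight index was compared by an exact permutation test.

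Members and lists were chosen with earlier results of these data known. Named genes are the 15 on each side with the smallest p among those of 1 sign in 4 pairs, the 5 on each side among those without pair 1, the 5 largest on each side, the 4 members of each list with the smallest p, and a fixed set of 24. Other list members were named after their values were seen. Promoter windows came from RefSeq (GRCm38.p6). The alternatives left out each pair, used the first array as deposited or the route over Dil1 in its place, dropped the dye term, centred or scaled the arrays, took genes with 4 values, a robust prior or single spots, or used all 11 arrays.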

Additional observations from a re-analysis of the deposited data

Results flagged for a closer look

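Of 166 groups of 4 pair values, 9 held 1 value far from the other 3 by Dixon's criterion for a gap within the range; chance gives about 1 in 20. Nppb was at 0.30 in pair 4 against 1.21 to 1.28 in the others. Cdkn1a was at 1.93 in pair 2, Gadd45a at -1.42, Camk2g at -0.28 and Col4a2 at -0.26, all in pair 2. Mrpl2, a mitochondrial ribosomal protein gene, was at -0.069 in pair 1 and Kcnd2 at -0.047 in pair 3, each nearer to 0 than in the other pairs. The median of the fatty acid oxidation list was -0.033 in pair 4, and that of the peroxisome list was -0.16 in pair 1.

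Of the 153 named genes, 2 were split by carrier group in every mouse with an array against WT. The 4 Hyp mice lay on one side of WT and the 3 Dil mice with such an array on the other, though 1 Dil mouse was at 0.00 for Bag1. The share of all features with such a split was not counted, so these 2 genes are a description only. Bag1 was at -0.24 in Hyp over WT and 0.14 in Dil over WT, and Rpl5, a ribosomal protein gene, at 0.15 and -0.12. The direct fit of Dil over Hyp, which tests that difference, gave -0.06 for Bag1 and -0.00 for Rpl5, and neither passed.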

How the results depend on the processing

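No feature passed in limma under any of the 14 alternatives (0 in each), and the smallest adjusted p ran from 0.0612 without pair 1 to 0.998 without pair 2. The count at an unadjusted p under 0.05, 1008 as reported, ran from 309 to 1854 when 1 pair was left out: 1854 without pair 1, 309 without pair 2 and 633 without pair 3. It was 533 with all 11 arrays and 582 with per-set estimates and the replicate block. The fits without pair 2 or pair 3 tested 9863 features, against 12097 as reported, so their counts are not directly comparable. The cause of the spread in counts was not tested. Of 153 named genes, 148 kept their direction in every alternative that gave a value. Many of the named genes were chosen for the same sign in every pair, so leaving out a pair could not turn them. For genes without pair 1, leaving out pair 1 changed nothing, and leaving out another pair gave no value. Genes whose sign follows the dye, such as Hes1, also count as kept. That number is therefore no measure of robustness. Of 33 list medians, 14 of 462 comparisons moved by more than the spread between pairs. A fit that leaves out a pair shares its other pairs with the reported fit, so a shift beyond that spread was unlikely from the start. Some alternatives hardly touch the estimates: with a robust prior the ER chaperone median stayed at 0.2333. The low count of moved medians is therefore no measure of robustness either. The other 5 named genes reversed. Fhl1 (0.02 as reported) was at -0.0047 with the first array as deposited and between -0.0186 and 0.0660 without single pairs, and Anpep (-0.13 as reported) between -0.2772 and 0.0106 likewise. Agtrap (-0.05 as reported) was at 0.0063 with set 1 over Dil1, 0.0116 with all 11 arrays and 0.0011 with the replicate block. Skp1, of a ubiquitin ligase complex, was at 0.20 as reported and -0.0302 with all 11 arrays. Atp2a2 (-0.02 as reported) was at 0.0476 with set 1 over Dil1, 0.18 by single spots, -0.0632 to 0.0316 without single pairs, 0.0013 with all 11 arrays and 0.0144 with the replicate block.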
